A study of Mus musculus with 152 samples.

Results

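The genes described are Ubd, which encodes the ubiquitin-like modifier FAT10, and the genes that make peptides and carry them to MHC class I: the inducible catalytic subunits of the proteasome (Psmb8, Psmb9, Psmb10), the activator subunits Psme1 and Psme2, the peptide transporter Tap1 and Tap2, the loading protein tapasin (Tapbp) and the class I transactivator Nlrc5. The 10 genes were chosen by name for their function, with earlier results of these data known. All 10 were found among the 54532 genes in the deposited tables. They were followed in RNA from the livers of C57BL/6J mice (a common inbred line) that ate from 8 weeks of age either a purified control diet or LIDPAD, a diet that induces non-alcoholic fatty liver disease. Diets lasted 1, 4, 8, 12, 16, 32 or 48 weeks, which gave 14 groups with no other treatment and no altered allele named in the labels. The labels do not give the composition of either diet.

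FAT10 is attached to other proteins in the way ubiquitin is and directs them to the proteasome, and its gene is known for induction by interferon gamma and tumour necrosis factor and for high levels in inflamed and diseased liver. Cells exposed to interferon gamma build immunoproteasomes, in which Psmb8, Psmb9 and Psmb10 take the places of the constitutive catalytic subunits Psmb5, Psmb6 and Psmb7. The peptides are pumped into the endoplasmic reticulum by the Tap1 and Tap2 pair and loaded onto class I molecules with the help of tapasin. Nlrc5 acts at class I promoters and at those of several of these helper genes.

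The labels listed 152 samples, which came in blocks of 4 that differed by no more than the sampling noise of a single library, so each block was averaged and counted as 1 library. This left 38 libraries. Each diet had 2 of them at weeks 1, 4, 8 and 12 and 3 at week 16, whereas week 32 had 5 LIDPAD libraries with 4 controls and week 48 had 4 LIDPAD libraries with 3 controls. Depth was 10.9 to 53.8 M reads per library. Nothing in the labels says that libraries came from separate animals, so p-values measure the spread between libraries, which may be technical. Values are FPM, the authors' read counts divided by a size factor and expressed per 1000000, and each week's table was normalized separately. Some libraries stood apart from their group. Control library 3 of week 48 differed over 4-fold from the mean of its group's other libraries in 420 genes, and LIDPAD libraries 1 and 2 of week 32 in 192 and 122. The 2 control libraries of week 4 differed from each other in 88 genes, a count that does not say which of them is unusual. Libraries also fell into 3 sets by which of their 4 columns held the most and the fewest reads: set A was weeks 1 to 12, set B was week 16 with control and LIDPAD libraries 1 to 3 of week 32, and set C was the rest of week 32 with week 48. No label names these sets, and what they stand for is not given in the sources used here. Markers of hepatocytes, the main cells of liver, were abundant in every library, with 6 markers summing to 26980 to 109400 FPM.

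Of the 10 genes, 6 lay on chromosome 17, in or near the MHC region. In the GENCODE annotation of GRCm38, Tapbp lay at chr17:33915899-33929292, Psmb9 at chr17:34181987-34187764 on the minus strand, Tap1 at chr17:34187553-34197225, Psmb8 at chr17:34197721-34201454, Tap2 at chr17:34203527-34216321 and Ubd at chr17:37193892-37196095. Psme1 (chr14:55578123-55581529) and Psme2 (chr14:55587441-55591113, minus strand) were neighbours on chromosome 14, and Nlrc5 (chr8:94434356-94527272) and Psmb10 (chr8:105935735-105938444, minus strand) lay on chromosome 8. Psmb9 and Tap1 were annotated head to head with 212 shared exon bases on opposite strands, and exons of Psmb8, Tap2 and Tapbp overlapped other genes by 498, 533 and 904 bases. The strand setting of the authors' counting is not given in the sources used here, so reads in those overlaps may have been divided between genes or lost. A retrogene copy of Psme2 exists, which makes its counts uncertain to the same kind of loss.

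The sequence before the start of Ubd, which had the widest diet difference of the 10, and the stretch between the starts of Psmb9 and Tap1, the pair called together at week 16, are shown from RefSeq on GRCm38.p6. RefSeq promoters were found for 8 of the 10 genes, all but Tap2 and Nlrc5. In the Ubd line (chr17:37193642-37193891, plus strand) capitals mark a match to the NF-kappaB consensus, and in the Psmb9-Tap1 line (chr17:34187331-34187555, plus strand, 225 bases) they mark a CCAAT box and a GC box.
Ubd, 250 bases before the start: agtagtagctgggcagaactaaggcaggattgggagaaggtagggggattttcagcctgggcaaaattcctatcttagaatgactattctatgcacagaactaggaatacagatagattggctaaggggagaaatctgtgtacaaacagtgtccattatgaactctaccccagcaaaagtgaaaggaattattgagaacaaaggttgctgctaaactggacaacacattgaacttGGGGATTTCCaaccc
Psmb9-Tap1, between the starts: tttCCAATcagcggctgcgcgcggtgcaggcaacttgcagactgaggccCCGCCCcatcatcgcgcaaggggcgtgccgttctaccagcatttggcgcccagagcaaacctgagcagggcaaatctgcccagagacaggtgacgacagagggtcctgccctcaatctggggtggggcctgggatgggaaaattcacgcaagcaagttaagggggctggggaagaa
Both strands of the 250 bases before each start were searched for GAAA and GAAA with 2 bases between them (interferon response element), TTCNNNGAA (gamma-activated site), the NF-kappaB consensus, GGGCGG (GC box), CCAAT and TATAA. The NF-kappaB match of Ubd, GGGGATTTCC, ended 6 bases before the start, and 3.9% of 32851 RefSeq promoter windows held such a match. Psmb8 had the only gamma-activated site among the 8 genes (7.02% of all windows), and none had the interferon response element as spelled (2.98%). GC boxes were found for Psmb9, Psme1, Psme2, Tap1 and Tapbp (32.7% of all windows), CCAAT for Ubd, Psmb9, Tap1 and Tapbp (33.8%), and TATAA for Psmb8 and Psme2 (22.8%). No 2 of these matches overlapped within a gene. A match is a string of letters and not a shown binding site, and a missing one says only that these letters were not in this window.

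Each week's LIDPAD and control libraries were compared with limma on log2(FPM + 0.5) over all genes that passed a filter of 1 FPM, and genes with a Benjamini-Hochberg adjusted p under 0.05 were called. No member was lower in LIDPAD by this test in any week. The members called higher were 1 of 10 at week 8 and 1 of 10 at week 12 (Ubd both times), 3 of 10 at week 16 (Ubd, Psmb9, Tap1) and 7 of 10 at week 32 (Ubd, Psmb8, Psmb9, Tap1, Tap2, Tapbp, Nlrc5). Of all genes tested, 3.85% were called higher at week 8, 8.99% at week 12, 16.3% at week 16 and 18% at week 32. The members' share was well above that of all genes at week 32 and rested on 1 gene at weeks 8 and 12. The members were chosen with earlier results of these data known, so their shares are a description and no independent evidence. The week 32 count was 4 of 10 without control library 1 or without control library 2 (Ubd, Psmb8, Psmb9 and Tap1 each time). None was called at week 1 (9 tested, 0.726% of all genes higher), week 4 (10 tested, 0.121%) or week 48 (10 tested, 6.54%). In those weeks limma's unadjusted p was under 0.05 for 1, 0 and 1 members, and edgeR and DESeq2 on the recovered reads called none. Without control library 3 at week 48, 3 members were called (Ubd, Psmb9, Tap2), against 22.3% of all genes higher.

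Counted by overlap alone, every LIDPAD library lay above every control library for 4, 0, 6, 3, 4, 7 and 2 of the 10 genes from week 1 to week 48. The same held for 24.2, 21.3, 28.3, 29.3, 23.5, 17 and 14.1% of all genes tested. The week 1 count of 4 includes Ubd, which was not among the genes tested that week. The median log2 change of the 10 genes was between -0.03 and 0.17 at weeks 1 to 16, 0.57 at week 32 and 0.19 at week 48 (9 genes at week 1), where the median of all genes was never further than 0.04 from 0.

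**Figure D1:**
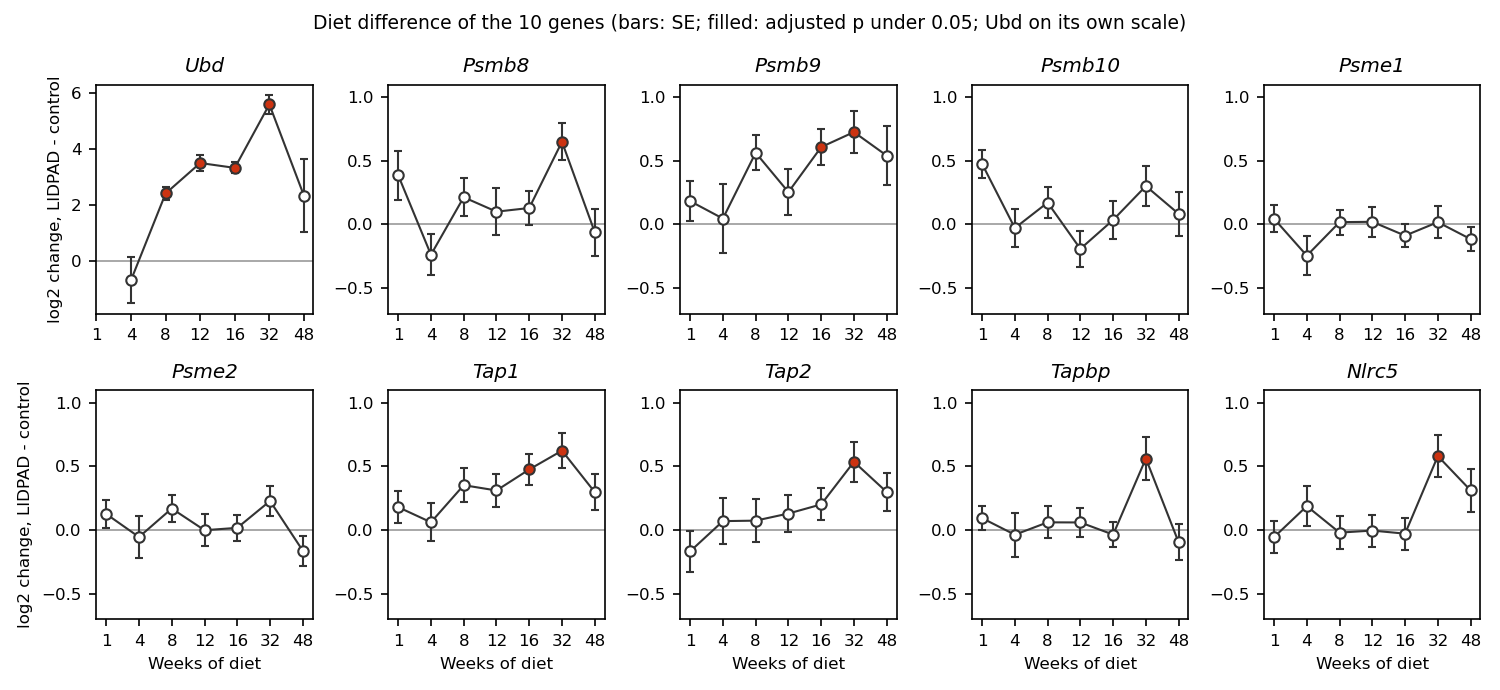
Difference between LIDPAD and control libraries (mean log2(FPM + 0.5), vertical axis) against weeks of diet for each of the 10 genes, with bars of 1 SE and filled points where limma's adjusted p was under 0.05. Ubd, on its own scale, climbs to 5.60 at week 32, while Psme1 and Psme2 stay near 0 throughout.

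Ubd was under 1 FPM in 16 of 18 control libraries and was called higher in LIDPAD livers at weeks 8 to 32. At week 8 the control libraries held 0.103 and 0.0943 FPM and the LIDPAD libraries 2.31 and 3.10. At week 12 they held 0.303 and 0.0487 FPM against 5.26 and 9.30. At week 16 the 3 control libraries held 0.726, 0.482 and 0.865 FPM and the 3 LIDPAD libraries 14.0, 9.69 and 10.7. Every LIDPAD library was above every control library at these weeks, and the LIDPAD level was higher at week 12 than at week 8 and higher at week 16 than at week 12 in every library, across separately normalized tables. The log2 change was 2.41 ± 0.23 (SE, adjusted p = 0.00491, limma) at week 8, 3.50 ± 0.30 (0.000203) at week 12 and 3.33 ± 0.20 (2.02e-06) at week 16. The week 8 call was lost without LIDPAD library 2 (2.23, adjusted p = 0.0804). At these weeks and at week 32 Ubd passed the filter through its LIDPAD libraries alone, and it was also called with no filter on low values.

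At week 32 the 4 control libraries held 4, 2, 0 and 0 Ubd reads, or 0.194, 0.0907, 0 and 0 FPM. A count of 0 allows up to 0.311 and 0.105 FPM in the latter libraries (3 reads, counting error only). The 5 LIDPAD libraries held 171, 926, 747, 593 and 768 reads, or 15.3, 57.6, 37.2, 19.3 and 22.6 FPM. The LIDPAD libraries thus varied among themselves by several-fold, but the lowest of them was still far above any control. The log2 change was 5.60 ± 0.34 (adjusted p = 8.51e-06, limma), on a scale that understates the change of a gene near 0. It was 5.79 in the libraries of set B and 5.42 in those of set C, which held 1 control library at this week.

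At weeks 4 and 48 a control library carried Ubd at the level of the LIDPAD libraries or above it. At week 48 the controls held 0.452, 0.766 and 68.4 FPM, and the LIDPAD libraries 19.8, 25.7, 18.7 and 22.0. The third control library was therefore the highest Ubd value of all 38, and the groups overlapped. The log2 change was 2.33 ± 1.32 (adjusted p = 0.305, limma), 4.32 ± 0.16 without that control library (adjusted p = 7.04e-08), and -0.14 with edgeR on the recovered reads, all libraries kept. At week 4 the controls held 0.351 and 4.26 FPM and the LIDPAD libraries 1.42 and 0.294, so the order of the libraries did not follow diet. The log2 change there was -0.70 ± 0.82 (adjusted p = 0.808, limma), and 0.54 ± 0.58 (0.668) without control library 2. The genes highest in these control libraries (library 2 of week 4 and library 3 of week 48) against the rest of their group were Ly6d, Gpnmb, Gsta1, Mmp12 and Gm3776 at week 4 and H19, Gm3776, Cyp2a4, Gsta1 and Ly6d at week 48. At week 1 Ubd did not pass the filter, with 0.137 and 0.0373 FPM in control (6 and 2 reads) and 0.546 and 1.38 FPM in LIDPAD libraries (26 and 52 reads), which did not overlap.

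**Figure D2:**
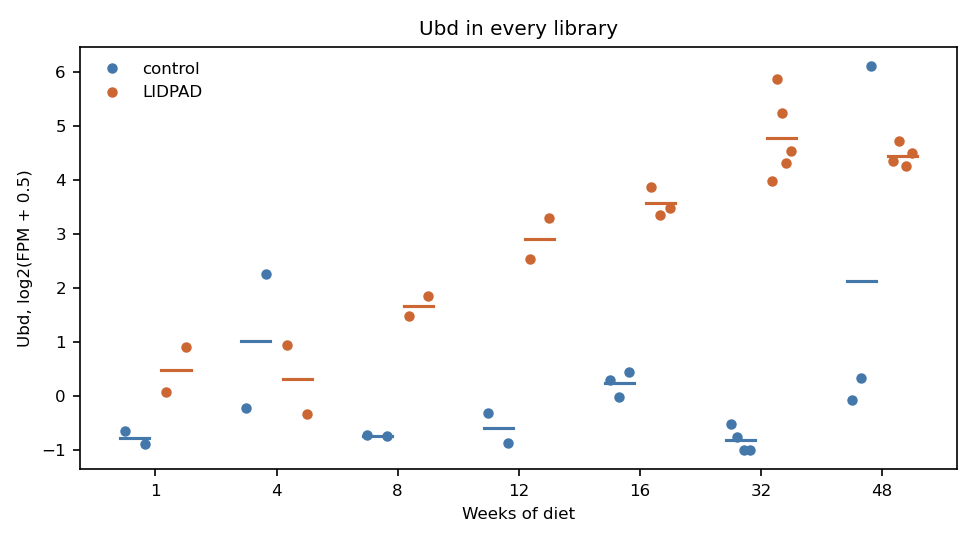
Ubd level (log2(FPM + 0.5), vertical axis) in each of 38 libraries by weeks of diet, with a dash at each group's mean. LIDPAD libraries separate from controls from week 8 to week 32, and 1 control library at week 48 (68.4 FPM) and 1 at week 4 (4.26 FPM) lie with or above the LIDPAD libraries.

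Among the inducible catalytic subunits, Psmb9 (LMP2, which takes the place of the caspase-like Psmb6) was the first to be called. At week 16 the control libraries held 4.62, 5.47 and 5.85 FPM and the LIDPAD libraries 8.41, 8.49 and 8.07, without overlap, for a log2 change of 0.61 ± 0.14 (adjusted p = 0.00805, limma). At week 32 the controls held 6.15, 3.92, 5.32 and 5.24 FPM and the LIDPAD libraries 8.35, 8.57, 10.8, 7.33 and 9.09, again without overlap (0.73 ± 0.16, adjusted p = 0.00751). At week 48 all 4 LIDPAD libraries (9.33 to 11.7 FPM) lay above the 3 controls (4.33, 8.24 and 9.02 FPM), yet the change of 0.54 ± 0.23 missed the threshold (adjusted p = 0.178, limma) and passed it without control library 3 (0.72 ± 0.20, adjusted p = 0.0175). Quantile normalization ended the call at week 32 (0.45, adjusted p = 0.0574).

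Psmb8 (LMP7, the chymotrypsin-like site) was called at week 32 and in no other week. The controls then held 9.39, 8.28, 9.00 and 9.60 FPM and the LIDPAD libraries 13.9, 18.3, 15.9, 13.6 and 11.6, without overlap (0.65 ± 0.15, adjusted p = 0.00711, limma). Its change was 0.81 among libraries of set B and 0.37 among those of set C, a difference that was not tested. At week 48 the groups overlapped entirely, with controls at 10.2, 14.1 and 18.2 FPM and LIDPAD libraries between 12.0 and 14.9 (-0.06 ± 0.18, adjusted p = 0.874).

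Psmb10 (MECL-1, the trypsin-like site) passed the test in no week. Its largest change was at week 1, from 9.21 and 9.83 to 13.1 and 13.8 FPM (0.48 ± 0.11, adjusted p = 0.0991, limma), where the groups did not overlap. At week 32 the controls ranged from 10.7 to 15.5 FPM and the LIDPAD libraries from 12.9 to 19.1 (0.30 ± 0.16, adjusted p = 0.183). The 3 LIDPAD libraries of set B held 17.6, 19.1 and 17.8 FPM, and the 2 of set C, 13.8 and 12.9, lay within the control range.

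**Figure D3:**
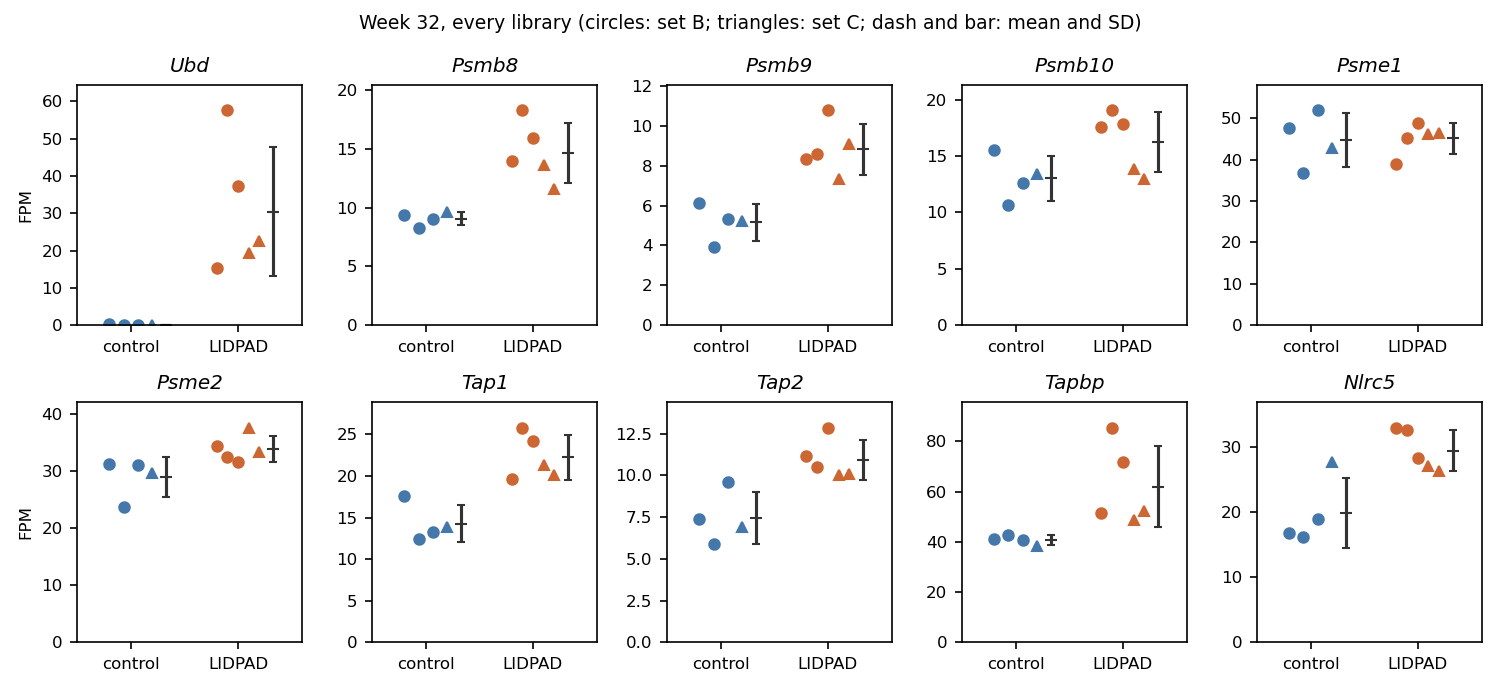
FPM (vertical axis, from 0) of the 10 genes in the 4 control and 5 LIDPAD libraries at week 32, with mean and SD beside them. Circles are libraries of set B and triangles those of set C; Ubd, Psmb8, Psmb9, Psme2, Tap1, Tap2 and Tapbp show no overlap between diets.

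Because an inducible subunit replaces a constitutive one in the assembled particle, the log2 ratio of each pair was taken within every library, which needs no scaling between libraries. The Psmb9 to Psmb6 ratio was higher in LIDPAD by 0.50, averaged over weeks (adjusted p = 0.00012 over 3 ratios, permutation of diet within weeks). The difference was positive in 7 of 7 weeks. At week 32 the ratio was -3.18 ± 0.29 in controls (SD, n = 4) and -2.27 ± 0.26 in LIDPAD (n = 5), and at week 48 -2.81 ± 0.59 (n = 3) and -1.97 ± 0.17 (n = 4). All LIDPAD libraries were above all controls at weeks 8, 16, 32 and 48, with exact permutation p = 0.00794 at week 32 and 0.0286 at week 48, which are the smallest those group sizes allow. At week 16 the difference was 0.73 (exact p = 0.1, also the smallest possible). Set by set the difference was 0.26 in set A (adjusted p = 0.273, permutation), 0.89 in set B (0.015) and 0.75 in set C (0.0286).

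The Psmb10 to Psmb7 ratio was higher in LIDPAD by 0.20 (adjusted p = 0.0138, permutation), but by 0.03 in set A, 0.62 in set B and 0.22 in set C (adjusted p = 0.938, 0.015 and 0.143). Its difference was positive in 6 of 7 weeks. At weeks 16, 32 and 48 the log2 change was 0.04, 0.30 and 0.08 for Psmb10 and -0.23, -0.33 and -0.27 for Psmb7. A higher ratio there thus came in part, and at weeks 16 and 48 mostly, from lower Psmb7 values. For Psmb8 to Psmb5 the difference was 0.07 (adjusted p = 0.352, permutation), with -0.01 in set A (0.938), 0.45 in set B (0.075) and 0.01 in set C (0.962). At week 32 the LIDPAD libraries of set B had Psmb8 to Psmb5 ratios of -0.01, 0.28 and 0.05 and those of set C -0.70 and -0.94, while the 4 controls lay between -1.005 and -0.78. Psmb5 itself was at 14.1, 15.0 and 15.3 FPM in the former LIDPAD libraries and at 22.5 and 22.6 in the latter, against 16.3 to 19.3 in controls. The LIDPAD libraries thus divided by set in both genes of the pair, and the part of the set in these values was not tested.

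**Figure D4:**
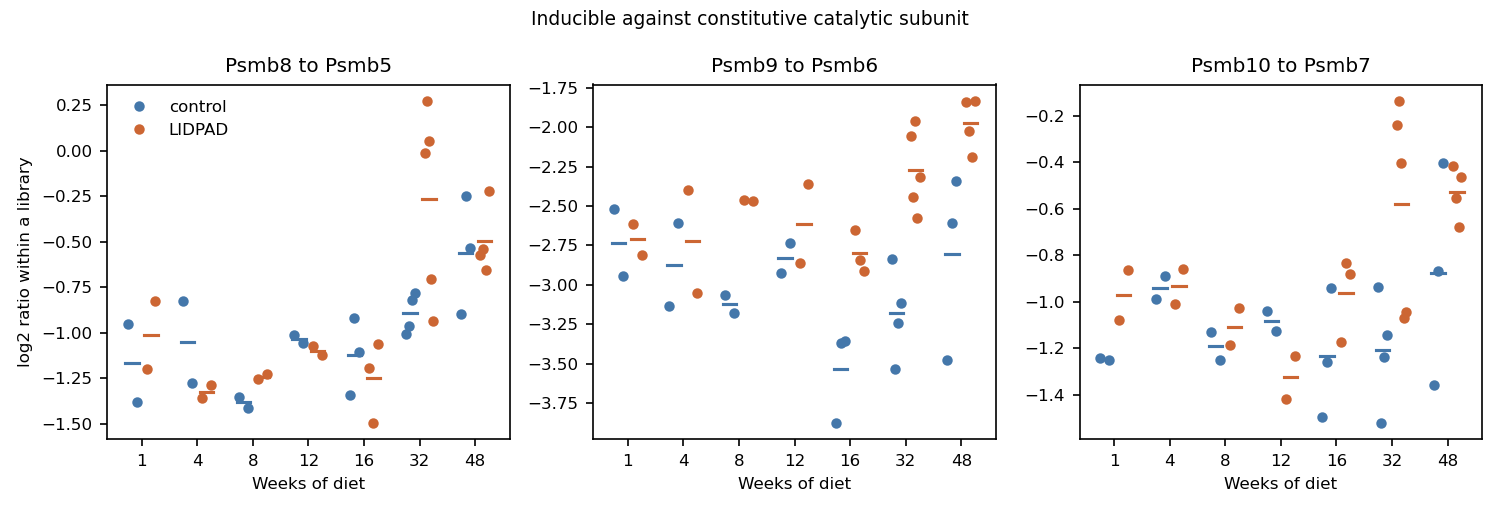
Log2 ratio of each inducible catalytic subunit to the constitutive one it replaces (vertical axes, separate scales) in each of 38 libraries by weeks of diet, with group means as dashes. Psmb9 to Psmb6 is higher in all LIDPAD than in all control libraries at weeks 8, 16, 32 and 48, whereas the other ratios overlap between diets at weeks 32 and 48.

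The constitutive subunits themselves were not called in any week by limma. At week 32, where limma called most genes higher, 18% of all genes were higher and 8.82% lower. Psmb7 was lower in LIDPAD without overlap at 3 weeks, at 32.5 ± 1.7 against 38.4 ± 3.9 FPM at week 16 (SD, n = 3 each), 24.5 ± 3.9 against 30.6 ± 0.7 at week 32 (n = 5 and 4) and 24.3 ± 1.5 against 29.3 ± 2.8 at week 48 (n = 4 and 3). Limma's adjusted p was 0.12, 0.0805 and 0.126. Differences without overlap ran both ways. Psmb5, Psmb6 and Psmb7 were higher in LIDPAD at week 1, and Psmb5 also at week 16 (26.2 ± 1.0 against 22.0 ± 3.2 FPM). Psmb6 was lower without overlap at weeks 4, 8 and 48. The share of all genes lower without overlap was not counted. Psmb6 came nearest to the threshold, at 41.7 ± 2.5 against 51.2 ± 3.1 FPM at week 48 (adjusted p = 0.0696, limma). DESeq2 on the recovered reads called 1 of the 3 lower at week 32 and 1 at week 48, against 13.5 and 7.66% of all genes, and edgeR none. These differences depend on scaling: with every library set to the same total, the median change of the 3 genes at week 32 was 0.12 in place of -0.18. On that scale 1 of the 3 was called higher at week 16, against 28.3% of all genes.

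Psme1 and Psme2, the alpha and beta subunits of the PA28 activator that caps the core particle, were the most abundant members per length and showed no called difference in any week with all libraries. Psme1 was at 44.9 ± 6.5 FPM in control and 45.2 ± 3.8 in LIDPAD libraries at week 32 (SD, n = 4 and 5), with a log2 change of 0.02 ± 0.13 (adjusted p = 0.938, limma). Over the weeks its change ran from -0.25 to 0.04. Psme2 ran from -0.16 to 0.23. At week 32 its controls held 31.2, 23.8, 31.1 and 29.7 FPM and its LIDPAD libraries 34.3, 32.4, 31.6, 37.6 and 33.4, which did not overlap but did not pass the test (0.23 ± 0.12, adjusted p = 0.177). The Psme2 change was of similar size in set C alone, with 1 control library (0.25), and in set B (0.20, adjusted p = 0.42, limma). With libraries rescaled to the same total, Psme2 (0.53, adjusted p = 0.0129, limma) and Psmb10 (0.60, 0.0296) passed at week 32. On that scale the median of all genes moved to 0.33, and 28.4% of all genes were called higher.

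Of the transporter subunits, Tap1 was called earlier than Tap2. At week 16 the Tap1 controls held 16.0, 14.8 and 19.1 FPM and the LIDPAD libraries 21.7, 25.2 and 22.8 (0.48 ± 0.12, adjusted p = 0.0137, limma), a call that was lost without LIDPAD library 2 (0.42, adjusted p = 0.0571). At week 32 the controls held 17.5, 12.4, 13.3 and 13.9 FPM and the LIDPAD libraries 19.6, 25.8, 24.2, 21.3 and 20.2 (0.62 ± 0.14, adjusted p = 0.00685). Neither week showed overlap. At weeks 8, 12 and 48 all LIDPAD libraries were also above all controls, with changes of 0.35, 0.31 and 0.30 that did not pass (adjusted p = 0.169, 0.158 and 0.227).

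Tap2 was called at week 32 (0.54 ± 0.16, adjusted p = 0.0258, limma). Its controls held 7.41, 5.90, 9.58 and 6.94 FPM and its LIDPAD libraries 11.2, 10.5, 12.9, 10.0 and 10.1, without overlap. The call did not survive the removal of control library 1, 2 or 4 or of LIDPAD library 3 (adjusted p between 0.0573 and 0.0798), nor in set B alone (0.58, adjusted p = 0.087) or under quantile normalization (0.33, 0.121), and the change without any one of those libraries lay between 0.44 and 0.54. At week 48 the change was 0.30 ± 0.15 (adjusted p = 0.248), and 0.43 ± 0.13 (0.0233) without control library 3.

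Tapbp, which bridges the transporter to empty class I molecules, was called at week 32 and in no other week. The controls lay close together at 41.3, 42.9, 40.8 and 38.3 FPM, and the LIDPAD libraries were spread at 51.6, 85.5, 71.9, 48.7 and 52.2 FPM (0.56 ± 0.17, adjusted p = 0.03, limma). LIDPAD library 2, the highest, was also the highest at that week for Ubd and Psmb8 and for the summed macrophage markers. The call was lost without any single control library or without LIDPAD library 3 (log2 change 0.50 to 0.59, adjusted p between 0.0566 and 0.0723), and with no filter on low values (0.0515). At week 48 the control libraries ranged from 46.9 to 72.9 FPM and enclosed the LIDPAD range of 53.3 to 59.5.

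Nlrc5 was called at week 32 alone. The controls held 16.8, 16.1, 18.9 and 27.7 FPM and the LIDPAD libraries 32.96, 32.6, 28.2, 27.0 and 26.3, so that the fourth control lay within the LIDPAD range (0.58 ± 0.16, adjusted p = 0.0224, limma). That control was the one of set C. Within set B the change was 0.84 ± 0.15 (adjusted p = 0.00583, limma, 3 libraries per diet), and within set C, with 1 control library, it was -0.05. With the set as a term in the fit it was 0.56 ± 0.17 (adjusted p = 0.0271). The call was lost without control library 1, 2 or 3 (log2 change 0.49 to 0.57, adjusted p between 0.0559 and 0.0714). At weeks 8, 12 and 16 the change was within 0.03 of 0.

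Whether the diet difference itself varied with week was tested in a joint limma fit of all 38 libraries. By the F test of diet and week, 1 of the 10 genes was called, Ubd (F = 5.00, adjusted p = 0.0208), against 11.6% of 15145 genes. The call was lost without control library 2 or LIDPAD library 2 of week 4 (adjusted p = 0.0754 and 0.0711) and with no filter on low values (no member called). The mean diet difference of weeks 16, 32 and 48 exceeded that of weeks 1 and 4 by 3.47 ± 0.88 for Ubd (adjusted p = 0.00687), the only member called in this contrast, for which 11.5% of genes were called higher and 5.86% lower. Without control library 2 of week 4 and control library 3 of week 48 it was 3.52 ± 0.39 (adjusted p = 1.6e-06), and Tap2 was called as well (0.48 ± 0.16, adjusted p = 0.0379). With all libraries, Psmb9 (0.51 ± 0.20, adjusted p = 0.0818), Tap2 (0.39 ± 0.15, 0.0691) and Tap1 (0.35 ± 0.14, 0.0916) came next, and Psmb10, Psme1 and Psme2 were within 0.09 of 0. A difference between members in their time course was not tested.

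Divided by exon length, the levels covered a wide range. The median over control libraries was 0.267 FPM per kilobase for Ubd, 1.47 for Psmb9, 1.81 for Tap2, 2.58 for Nlrc5, 2.74 for Psmb8, 2.80 for Tap1, 8.00 for Psmb10, 11.5 for Tapbp, 17.4 for Psme2 and 19.0 for Psme1. In LIDPAD libraries Ubd stood at 13.3 FPM per kilobase, between Psmb10 (8.62) and Tapbp (14.3), and the other 9 genes kept the order they had in controls. Over the 7 weeks the control means of each pair of neighbours in that order overlapped in range, except Tap1 (at most 3.44) and Psmb10 (at least 5.58). These levels cross separately normalized tables.

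Few genes of the rest of the proteasome were called on the deposited scale. Of 11 other core particle subunits, limma called 0 at weeks 16, 32 and 48 (unadjusted p under 0.05 for 0, 2 and 1). Of all genes, 16.3, 18 and 6.54% were called higher and 12, 8.82 and 3.34% lower. Of these subunits, edgeR and DESeq2 each called 2 lower at week 32, against 10.5 and 13.5% of all genes. With equal totals 2 were higher at week 48, against 19.3%. The median change at week 32 was -0.20. Psmb2 (32.3 ± 0.8 to 26.2 ± 2.5 FPM, adjusted p = 0.0571) and Psmb3 (34.9 ± 3.5 to 28.2 ± 1.6, adjusted p = 0.06) lay closest to the threshold. Of 21 genes of the regulatory particle and other caps, 1 was called higher and 1 lower at week 16, against 16.3% and 12% of all genes. With equal totals 6 were higher and 0 lower, against 28.3% and 5.74% of all genes. At week 32, 1 was called higher and 2 lower, against 18% and 8.82%. With edgeR or DESeq2 4 were lower, against 10.5% and 13.5% of all genes. The one that rose was Psmd8, a lid subunit, from 76.4 ± 8.5 to 134.1 ± 6.1 FPM at week 16 (0.81 ± 0.10, adjusted p = 0.000199, limma) and by 0.43 ± 0.10 at week 32 (adjusted p = 0.011). Psmd11, another lid subunit, fell by 0.44 and by 0.51 on the log2 scale (adjusted p = 0.0151 and 0.0234), and the cap protein Psme4 fell by 0.42 at week 32 (0.0426). Neither fall at week 32 passed with equal totals or quantile normalization. The medians of these lists depended on scaling: with equal totals they were 0.10 and 0.09 at week 32 in place of -0.20 and -0.21. No assembly factor was called of 5 at weeks 16 and 32 by limma, edgeR or DESeq2, and none had an unadjusted p under 0.05. Limma called 16.3 and 18% of all genes higher and 12 and 8.82% lower at these weeks. With equal totals 1 assembly factor was called higher at each of these weeks, against 28.3 and 28.4% of all genes. Pomp, which matures the core particle, changed by 0.15 ± 0.11 and -0.03 ± 0.14.

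Partners of FAT10 and the ubiquitin genes differed less than Ubd. Of the 5 FAT10 partners, Sqstm1 (p62, an autophagy receptor that binds FAT10) rose at week 16 from 271.4 ± 17.0 to 375.4 ± 21.1 FPM (0.47 ± 0.10, adjusted p = 0.00434, limma) and had a change of 0.41 ± 0.18 at week 32 (0.122). Uba6, the enzyme that activates FAT10, changed by 0.25 ± 0.11 at week 16 (adjusted p = 0.11, limma) and by 0.01 ± 0.11 at week 32. None of the 5 passed at week 32 in limma, edgeR or DESeq2, and 1 had an unadjusted p under 0.05. At that week limma called 18% of all genes higher and 8.82% lower. Whether so short a list differs from those shares was not tested. With equal totals or quantile normalization, 1 of the 5 was called higher at week 32, against 28.4 and 12.7% of all genes. Of the ubiquitin genes Ubb rose at week 16 (277.4 ± 21.1 to 359.1 ± 7.9 FPM, adjusted p = 0.0134), and Isg15, another ubiquitin-like modifier induced by interferon, was at 1.97 ± 0.61 and 2.62 ± 0.70 FPM at week 32 (adjusted p = 0.32). Of 6 partners in peptide loading, none was called at week 16 by limma, edgeR or DESeq2, or had an unadjusted p under 0.05. Limma then called 16.3% of all genes higher and 12% lower. With equal totals or quantile normalization, 1 partner was called higher at weeks 16 and 32. The shares of all genes were 28.3 and 28.4% with equal totals, and 14.9 and 12.7% with quantile normalization. Pdia3, a chaperone of the loading complex, fell at week 32 from 275.8 ± 53.3 to 182.0 ± 22.6 FPM (-0.59 ± 0.15, adjusted p = 0.0158), which did not pass with equal totals or quantile normalization.

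Genes of the interferon gamma pathway were called at both of these weeks. Of the 9 signalling genes tested, 3 were higher and 1 lower at week 16, against 16.3% and 12% of all genes, and 7 were higher at week 32, against 18% (median 0.35 and 0.78). With equal totals 5 were higher and 0 lower at week 16, against 28.3% and 5.74% of all genes. Ciita, the class II counterpart of Nlrc5, rose from 2.52 ± 0.57 to 8.06 ± 1.21 FPM at week 16 and from 1.84 ± 0.13 to 16.1 ± 7.9 at week 32 (log2 change 2.71 ± 0.29, adjusted p = 0.000139, limma). Irf8, an interferon regulatory factor of myeloid cells, rose by 1.38 ± 0.18 and 1.62 ± 0.29, and the receptor chain Ifngr2 by 0.73 ± 0.14 and 1.29 ± 0.21. Ifng itself passed the filter in no week. Of 10 interferon gamma target genes, 6 were higher and 1 (Iigp1) lower at week 16 and 5 were higher at week 32 (median 0.61 and 0.81). With limma 16.3 and 18% of all genes were higher, and 12% lower at week 16. Under quantile normalization 3 were higher at each week, against 14.9 and 12.7% of all genes. Gbp2, a guanylate-binding protein, rose by 1.14 ± 0.17 and 1.70 ± 0.19, Gbp3 by 0.51 ± 0.17 and 1.34 ± 0.25, and the chemokine Cxcl10 by 1.81 ± 0.27 at week 16, with 0.62 ± 0.36 (adjusted p = 0.227) at week 32.

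Targets of nuclear factor kappa B, the transcription factor family downstream of tumour necrosis factor, had the highest medians of the pathway lists at weeks 8 to 32. Of 7 tested, 1, 5, 5 and 6 were called higher at weeks 8, 12, 16 and 32, against 3.85, 8.99, 16.3 and 18% of all genes, with medians of 0.72, 0.88, 1.20 and 1.298. The week 8 count was 4 with DESeq2 or equal totals and 0 under quantile normalization, against 5.79, 6.52 and 3.19% of all genes. The week 8 lead over interferon gamma targets was narrow (median 0.72 against 0.64) and absent with DESeq2 (0.7146 against 0.7153). Of the 10 interferon gamma targets, limma called 4 higher at week 8. At week 1 limma called 2 of them (0 with equal totals), against 0.726% of all genes. It called 0 nuclear factor kappa B targets at week 1, and DESeq2 called 1. Vcam1, an adhesion molecule, rose from 9.18 ± 0.97 to 39.7 ± 8.7 FPM at week 16 (2.03 ± 0.16, adjusted p = 9.7e-06, limma), and Tnfaip3, which restrains the pathway, from 2.80 ± 0.73 to 13.4 ± 2.9 (2.08 ± 0.21, 4.42e-05). Nfkb2 and Relb, subunits of the non-canonical arm, rose at week 32 by 1.28 ± 0.17 and 1.59 ± 0.21. These lists were chosen with results of these libraries known, so their counts are a description and no independent evidence of direction.

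**Figure D5:**
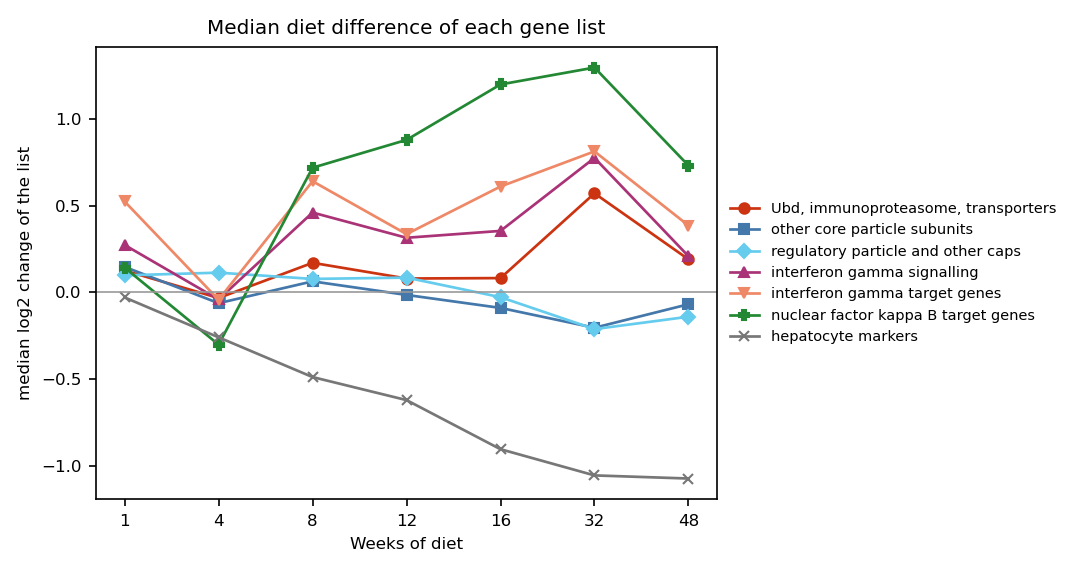
Median log2 difference between LIDPAD and control (vertical axis) of each gene list over its tested genes, by weeks of diet. The 10 genes (circles) reach 0.57 at week 32, when the nuclear factor kappa B targets reach 1.298 and the other core particle subunits lie at -0.20.

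Immune cells are known to carry many of these genes at high levels. Their markers were read mainly at weeks 16 and 32, but calls were not confined to those weeks. At weeks 8 and 12, when only Ubd of the members was called, 7 of 11 macrophage markers tested were called higher. The shares of all genes were 3.85 and 8.99%. At week 48, when no member was called, 7 of 12 were higher and 1 lower, against 6.54 and 3.34% of all genes. In whole liver, fewer cells of a type and less RNA per cell cannot be told apart. Of 12 macrophage markers, 8 of 11 tested were called higher at week 16 and 7 of 11 at week 32, against 16.3% and 18% of all genes. Their summed level was 151 to 279 FPM in control and 375 to 580 FPM in LIDPAD libraries at week 16, and 117 to 215 and 339 to 1766 FPM at week 32. Trem2, a marker of lipid-associated macrophages, rose at week 32 from 0.174 ± 0.168 to 16.6 ± 9.8 FPM, and Ccr2 and Gpnmb rose at both weeks. Not every macrophage marker rose. The lowest log2 change in the list was -0.76 at week 16 and -1.18 at week 32, with 0 called lower at either week. Trem2 and Gpnmb were under 1 FPM on average in controls and passed the filter through LIDPAD libraries. The marker counts above include them and are therefore a description. Of 7 dendritic cell markers, 1 of 4 tested was called at each week (Itgax, an integrin that macrophages also carry), with sums of 14.6 to 15.3 against 27.3 to 37.2 FPM and of 10.4 to 14.7 against 33.6 to 77.0 FPM.

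T and NK cell markers were close to the detection limit. None of 14 was tested at week 16, where they summed to 2.92 to 4.65 FPM in control and 4.44 to 6.91 FPM in LIDPAD libraries. At week 32 they summed to 3.29 to 3.8 FPM in control and 7.53 to 22.7 FPM in LIDPAD libraries, without overlap. Cd8a, a T cell coreceptor chain, was at 0.270 ± 0.137 and 1.20 ± 0.33 FPM, and since it passed the filter only through the LIDPAD libraries its test is not given. The 6 B and plasma cell markers summed to 2.68 to 4.13 FPM in control and 7.21 to 186.1 FPM in LIDPAD libraries at week 32, and the highest value was in LIDPAD library 1. In that library the members were not the highest of the 5, except Nlrc5. No marker of these lists was at 0 in all libraries of a group at week 32. Hepatocyte markers were called lower for 4 of 6 at week 16 and 3 of 6 at week 32, against 12% and 8.82% of all genes. DESeq2 called 6 and 5 lower, against 13 and 13.5% of all genes. Quantile normalization left 3 and 0, against 13.5 and 12.4%, with a week 32 median of -0.27 in place of -1.06. Their sums overlapped at week 32, at 82170 to 99300 FPM in controls and 31470 to 109400 FPM in LIDPAD libraries, of which library 1 was above every control. Cps1, a urea cycle enzyme, was at 3775 ± 646 against 1842 ± 668 FPM at week 32. The part of these cells in the members' levels was not tested.

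The libraries' pattern of diet differences was compared between genes by Pearson correlation of log2(FPM + 0.5) minus the week's control mean over 38 libraries, among 12330 genes that passed the filter in every week. These points share libraries, depth and the division by diet, so the values are a description. The genes most like Ubd were Abcb1a (r = 0.968), Lpl (0.968), Col5a2 (0.966), Sirpa (0.965) and Rtn4 (0.965). Each of these 5 also had its highest control value at week 48 in the group that held the outlying library. Without that library and control library 2 of week 4 their r was 0.965 to 0.969. Among the members the nearest to Ubd were Tap1 (0.855), Psmb9 (0.823), Tap2 (0.738) and Psmb8 (0.737), and the farthest was Psme1 (0.108). Among the 12330 genes these 4 nearest members ranked only 594, 805, 1336 and 1343, so many other genes were closer to Ubd. Psmb8 was most like Pros1 (0.865), Parp12 (0.857), Lcn2 (0.832), Vps26c (0.826) and Gm4070 (0.825), with Tapbp (0.802, rank 19) the nearest member. Nlrc5 was most like Lnpep (0.861), Gm34408 (0.855), Alpk1 (0.842), Gm18853 (0.820) and Gm18852 (0.813), with no member above Tap2 (0.626, rank 570).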

How the data were processed

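Illumina libraries of total liver RNA were prepared by a service provider, per the labels' protocols. The deposited values are a signal in FPM, which the authors made by dividing gene read counts by a size factor and scaling to 1000000. The submitters' processing notes name HISAT2, featureCounts, DESeq2 and GRCm38, with no role or version, and no strand setting is given. Multiplied back, 100% of values came within 0.02 of a whole read. Blocks of 4 columns differed by a chi-square per gene of 2.04 to 2.16, against at least 2.65 between blocks, and were averaged. Reads were counted largely in pairs.

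Each week was fitted with limma 3.58.1 (R 4.3.3) on log2(FPM + 0.5), with a mean-variance trend, keeping genes that reached 1 FPM in a number of libraries equal to the smaller diet group, adjusted over all genes (Benjamini-Hochberg). The joint fit used 14 group means. Ratios were tested by 100000 two-sided permutations within weeks or by exact permutation within a week or set. Sets A, B and C were defined from the deposited reads alone, by which of a block's 4 columns held the most and the fewest. edgeR 4.0.16 and DESeq2 1.42.0 on recovered reads were alternatives. Scripts were tested on simulated data. Members, lists and tests were chosen with earlier results of these data known. Named genes were the members, the constitutive subunits, the 2 genes of each list with the smallest p at weeks 16 and 32, and the 5 genes most like Ubd, Psmb8 and Nlrc5. Psme4, Iigp1 and the genes of outlying libraries were named after their values were seen. Marker lists were read for cell types. Values of 38 libraries were used, with Python 3.11.15 for tables and plots.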

Additional observations from a re-analysis of the deposited data

Results flagged for a closer look

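Tapbp in the week 48 LIDPAD group had a library at 59.49 FPM, far from the other 3 (53.3 to 54.2 FPM), with a gap of 0.852 of the group's range where 0.829 is the 95% limit for 4 values. It was 1 of 39 groups of 4 or 5 libraries examined, and chance flags about 1 in 20.

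The diet difference of Ubd differed between weeks, by the F test of diet and week (F = 4.995, adjusted p = 0.0208, limma) and by the contrast of weeks 16, 32 and 48 with weeks 1 and 4 (3.47 on the log2 scale, adjusted p = 0.00687). Its value at week 4 rested on control library 2, which held 4.26 FPM against 0.351 in the other control library. The F test call was lost without control library 2 or LIDPAD library 2 of week 4, and with no filter on low values.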

How the results depend on the processing

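Of the alternatives tried, Ubd at weeks 12, 16 and 32 kept its direction and its call in each that could test it. The count of members called moved as follows. Rescaling libraries to a total of 1000000 gave 2 at week 8 (Ubd, Psmb9), 2 at week 12 (Ubd, Tap1), 1 at week 48 (Tap1) and 4 in the contrast of late with early weeks (Ubd, Psmb9, Tap1, Tap2), and it raised the median of all genes by up to 0.33 (log2). On that scale 6.52, 13.8 and 19.3% of all genes were called higher at weeks 8, 12 and 48, and 18.6% in that contrast. A filter of 5 FPM gave 0 at week 8, where Ubd no longer passed, and no filter gave 0 in the F test. Leaving out 1 library at a time gave 0 to 2 at week 1, 0 at week 4, 0 to 2 at week 8, 1 to 2 at week 12, 2 to 3 at week 16, 4 to 7 at week 32, 0 to 3 at week 48, 0 to 2 in the F test and 1 to 3 in the late contrast. Week 32 fell to 4 (Ubd, Psmb8, Psmb9, Tap1) without control library 1 or 2, week 8 to 0 without LIDPAD library 2, and week 1 rose to 2 (Ubd, Psmb10) without LIDPAD library 1. In the F test Nlrc5 joined Ubd without control library 4 of week 32, and Psmb8 without control library 1 of week 48. Without control library 1, Psmb9 was added at week 8 and Tap1 at week 12. In the late contrast Tap2 was added without control library 2 of week 1 or control library 3 of week 32, Psmb9 without LIDPAD library 1 of week 4, and both without control library 3 of week 48. Without control library 2 of week 4 and control library 3 of week 48, an alternative chosen after seeing the data, the late contrast called 2. The cause of these shifts was not tested beyond these fits.

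Leaving out 1 library kept the ratio differences at 0.04 to 0.11 (Psmb8 to Psmb5), 0.45 to 0.55 (Psmb9 to Psmb6) and 0.16 to 0.23 (Psmb10 to Psmb7). By set, chosen for the ratios after seeing the data, Psmb9 to Psmb6 missed the threshold in set A (0.26) and Psmb10 to Psmb7 in sets A (0.0312) and C (0.217). Nlrc5 at week 32 was -0.0531 in set C alone, which held 1 control library. The library numbers did not pair the samples (correlations of same-numbered libraries -0.116 to 0.123). The replicate block gave 6 members at week 32, Nlrc5 being lost (0.62, adjusted p = 0.0643), and changed no other weekly count. Depth was from 10.9 M reads, and weeks 1 to 12 rested on 2 libraries per diet.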
